A study of Mus musculus with 3 samples.

Results

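The narrowed promoter peaks are H3K4me3 peaks near a transcription start site (TSS) that were shorter in MLg cells treated with TGFB1 than in Ctrl cells. They were chosen by their length: a peak of the TGFB1 list whose centre lies within 2000 bp of a TSS was a member if it overlapped exactly 1 Ctrl peak, that Ctrl peak overlapped no other TGFB1 peak, and the TGFB1 length was 0.8 or less of the Ctrl length. Of the 9116 peaks of the TGFB1 list, 8669 lay within 2000 bp of a TSS and 8145 of these were matched 1 to 1, and 238 of the 8145 pairs were narrowed, which is 2.92% (Wilson 95% interval 2.58 to 3.31%). They carry 237 distinct gene names, since Trim2 has 2 narrowed promoters. Since the Ctrl and TGFB1 lengths chose the members, these lengths and the scores of the same lists are given as a description, with no test.

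MLg is a mouse lung fibroblast cell line, and H3K4me3 was mapped in 3 libraries by chromatin immunoprecipitation and sequencing, 1 library per group. The Ctrl group is labelled WT and was not given TGFB1. The TGFB1 group received human recombinant TGFB1 at 5 ng/ml for 4 h, added 20 h after transfection, with harvest at 24 h. The TGFB1+miR-9-LOF group received the same TGFB1 after transfection with an antagomiR probe against miR-9-5p at 60 nM, an antisense oligonucleotide that blocks this microRNA. By the study's description the Ctrl and TGFB1 cells were transfected too, with a Ctrl antagomiR probe that has no microRNA as its target, and the labels give 60 nM for both probes but do not tie the Ctrl probe to a library. With 1 library per group no difference between groups has a replicate check, so no p-value is given, and every interval below covers counting error over peaks only.

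H3K4me3 is a histone mark placed around the start of active genes by methyltransferases of the SET1 and MLL type, and the width of the marked domain varies between genes. TGFB1 is a secreted growth factor that signals through receptor kinases and SMAD proteins and drives fibroblasts towards contractile, matrix-producing myofibroblasts. miR-9 is a microRNA, a short RNA that pairs with other RNAs mainly through its seed, bases 2 to 8. The blocked microRNA is shown with its seed in capitals, since the TGFB1+miR-9-LOF library is defined by its loss.
mmu-miR-9-5p: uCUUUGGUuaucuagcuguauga

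For Ctrl, TGFB1 and TGFB1+miR-9-LOF in this order, 8727, 9116 and 4959 peaks were listed, their median lengths were 1694, 1747 and 1343 bp and their median scores 79, 89 and 46. The TGFB1+miR-9-LOF list was thus the smallest, with the shortest and lowest-scoring peaks. The score is the one deposited with each peak and was not scaled between libraries. The number of reads behind a peak is unknown, and no peak was shorter than 1000 bp, the length to which reads were extended before peak calling. Of 15 fibroblast markers, 9 had a promoter peak in the Ctrl and TGFB1 lists and 6 had one in the TGFB1+miR-9-LOF list, among them Col1a1, Col1a2 and Vim. None of the 9 lung epithelial, 6 endothelial and 5 neural markers had one in any list, and of 7 immune markers only Cd14 had one, in Ctrl and TGFB1. No marker of any of these cell types was narrowed.

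To describe the width of the narrowed promoters, their lengths were set beside those of the other 7907 pairs. The narrowed peaks had a median Ctrl length of 1709.5 bp (range 1271 to 3377 bp) and a median TGFB1 length of 1248 bp (range 1000 to 2556 bp). The medians of the other pairs were 1706 and 1785 bp. In Ctrl the narrowed peaks were therefore about as long as the rest. The median loss was 437 bp per narrowed peak, from 271 bp at Ocrl to 1501 bp at Pml. The length ratio of TGFB1 over Ctrl ran from 0.416 to 0.7999 with a median of 0.753, and its median over all 8145 pairs was 1.04. Peaks longer in TGFB1 were more numerous than narrowed ones: 837 pairs had a ratio of 1.25 or more, which is 10.3% of the pairs.

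**Figure D1:**
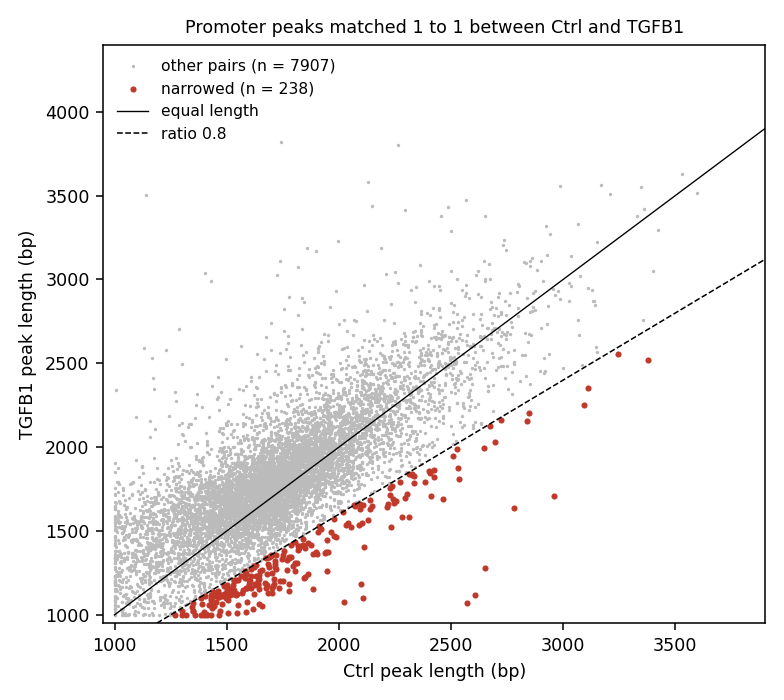
Length in bp of each promoter peak in Ctrl (x axis) and TGFB1 (y axis), for the 8145 pairs matched 1 to 1. Red points are the 238 narrowed peaks at or under the dashed line of ratio 0.8, grey points the other 7907 pairs, and the solid line marks equal length; 3 red points, Pml, Atp6v1a and Shoc2, lie farthest below the dashed line.

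By the breadth classes of the study, in which a broad peak has 2700 bp or more and a medium one 2000 bp or more, 9 narrowed peaks were broad in Ctrl and 55 were medium. These are 3.78% and 23.1% of the members, against 1.44% and 18.0% of the other pairs. None of the 238 was broad in TGFB1 and 9 were medium. A ratio of 0.8 or less leaves a broad TGFB1 peak only to the very longest Ctrl peaks, so this absence follows largely from the rule. Among the 9 broad ones in Ctrl were the promoters of Dusp4, Jak2, Mir6935, Ing1, Rusc2, Schip1, Fgf7 and Agbl5. At the short end, 95 narrowed peaks were under 1200 bp in TGFB1 and 8 had exactly the shortest length of 1000 bp, among them Ocrl, Inpp5e, Syt1 and Cntln. These are 39.9% and 3.36% of the members, against 2.61% and 0.152% of the other pairs, and the rule itself selects short TGFB1 peaks. A Ctrl peak under 1250 bp could not have been a member, because 0.8 of its length is below 1000 bp, and 709 of the other pairs were that short. The limit of 0.8 had no gap around it: just inside lay Erlec1 (Ctrl length 2020 bp, TGFB1 length 1615 bp), Bnip3l (1696 and 1356 bp) and Acta2 (2069 and 1655 bp), and just outside lay Abhd10 (1650 and 1322 bp), Bhlhe22 (1842 and 1476 bp) and Rasgef1b (1375 and 1102 bp).

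The largest loss was at Pml, which encodes the scaffold protein of PML nuclear bodies. Its Ctrl peak spanned 2570 bp (chr9:58247098-58249667 in mm10) and its TGFB1 peak 1069 bp (chr9:58248625-58249693), and no TGFB1+miR-9-LOF peak overlapped it. The loss lay within the gene: the peak ended 1527 bp earlier on the downstream side and kept its upstream end within 26 bp. Its score was 43 in Ctrl and 32 in TGFB1, both low for these lists. The Pml peak held no annotated RefSeq start of a curated transcript, since the nearest one lay 119 bp upstream of the Ctrl peak.

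At the second, the gene given to the peak changed between lists. The peak named Atp6v1a in TGFB1, after a catalytic subunit of the vacuolar proton pump, was named Naa50 in Ctrl, after the catalytic subunit of an N-terminal acetyltransferase. These genes are transcribed in opposite directions from a shared promoter. The Ctrl peak (chr16:44138481-44141086, 2606 bp) covered both starts, while the TGFB1 peak (chr16:44137911-44139027, 1117 bp) covered neither and lay on the Atp6v1a side, where it reached 570 bp farther than the Ctrl peak. The scores were 59 and 53, and TGFB1+miR-9-LOF had no peak there.

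At the third, too, the name changed: the peak named Shoc2 in TGFB1 was named Bbip1 in Ctrl. Shoc2 encodes a scaffold of the RAS to RAF pathway and Bbip1 a subunit of the BBSome, a complex of ciliary transport. The Ctrl peak was 2650 bp long (chr19:53943289-53945938) and the TGFB1 peak 1278 bp (chr19:53943272-53944549), with the upstream end unmoved within 17 bp and 1389 bp missing downstream, so that the start of Bbip1, which lies on the opposite strand within Shoc2, was left outside while a start of Shoc2 was kept. Its score was 39 in Ctrl and 57 in TGFB1, so this peak was shorter and higher scoring at once.

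The sequences below show the centre of the TGFB1 peak and the centre of the longest stretch that was in the Ctrl peak only, 150 bases each in the direction of the gene, with each CG in capitals. They are given for these 3 promoters, the smallest ratios with a sequence to show, and for Jak2 and Fgf7, which were broad in Ctrl. All were read from the RefSeq assembly GRCm38, the build of the peak lists.
Pml TGFB1 peak, chr9:58249084-58249233, minus strand: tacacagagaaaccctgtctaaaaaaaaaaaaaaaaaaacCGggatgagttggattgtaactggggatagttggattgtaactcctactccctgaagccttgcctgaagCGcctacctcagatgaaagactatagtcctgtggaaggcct
Pml Ctrl only, chr9:58247786-58247935, minus strand: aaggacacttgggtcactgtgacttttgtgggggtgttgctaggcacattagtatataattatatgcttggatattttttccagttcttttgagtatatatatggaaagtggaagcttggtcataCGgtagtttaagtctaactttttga
Atp6v1a TGFB1 peak, chr16:44138394-44138543, minus strand: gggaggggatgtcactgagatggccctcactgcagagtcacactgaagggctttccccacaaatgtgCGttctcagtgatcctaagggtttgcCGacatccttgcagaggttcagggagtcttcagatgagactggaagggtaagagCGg
Atp6v1a Ctrl only, chr16:44139982-44140131, minus strand: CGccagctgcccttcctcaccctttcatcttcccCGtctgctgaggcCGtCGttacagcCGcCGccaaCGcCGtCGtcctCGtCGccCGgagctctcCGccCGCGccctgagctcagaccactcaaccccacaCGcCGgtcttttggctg
Shoc2 TGFB1 peak, chr19:53943835-53943984, plus strand: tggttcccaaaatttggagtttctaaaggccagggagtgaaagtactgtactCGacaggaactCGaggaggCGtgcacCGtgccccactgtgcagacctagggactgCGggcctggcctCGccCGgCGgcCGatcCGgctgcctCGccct
Shoc2 Ctrl only, chr19:53945169-53945318, plus strand: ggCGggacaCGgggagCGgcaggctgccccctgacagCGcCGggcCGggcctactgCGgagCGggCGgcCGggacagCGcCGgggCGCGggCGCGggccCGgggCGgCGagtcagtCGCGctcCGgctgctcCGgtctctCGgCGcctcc
Jak2 TGFB1 peak, chr19:29252036-29252185, plus strand: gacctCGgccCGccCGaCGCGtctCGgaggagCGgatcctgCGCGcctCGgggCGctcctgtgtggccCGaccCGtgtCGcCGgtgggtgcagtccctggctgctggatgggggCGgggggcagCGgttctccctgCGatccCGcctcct
Jak2 Ctrl only, chr19:29250562-29250711, plus strand: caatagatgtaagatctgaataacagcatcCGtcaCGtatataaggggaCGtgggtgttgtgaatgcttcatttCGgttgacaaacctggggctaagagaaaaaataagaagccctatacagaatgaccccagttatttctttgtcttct
Fgf7 TGFB1 peak, chr2:126036179-126036328, plus strand: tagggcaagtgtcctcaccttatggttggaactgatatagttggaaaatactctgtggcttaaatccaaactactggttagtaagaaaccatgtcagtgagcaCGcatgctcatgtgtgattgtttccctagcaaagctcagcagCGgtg
Fgf7 Ctrl only, chr2:126037911-126038060, plus strand: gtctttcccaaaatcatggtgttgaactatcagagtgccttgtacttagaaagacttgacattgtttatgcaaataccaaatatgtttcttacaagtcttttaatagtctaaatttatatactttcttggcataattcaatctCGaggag
CpG islands, stretches rich in CG, mark the promoters of most widely used genes. In these windows the TGFB1 peak held 11 CG against 25 in the Ctrl-only stretch at Shoc2 and 3 against 17 at Atp6v1a, so that the CG-rich part was the one left out. Jak2 showed the opposite, with 19 in the TGFB1 peak and 4 in the Ctrl-only stretch. Pml (2 and 1) and Fgf7 (2 and 1) were poor in CG throughout.

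Over all 238 members the Jak2 pattern was the common one. The bases kept in TGFB1 had a median GC content of 56.9% and those in the Ctrl-only stretches 49.9%, and the GC content was lower in the Ctrl-only bases at 74.0% of the members (Wilson 95% interval 68.0 to 79.1%). The CpG ratio, the observed over the expected number of CG, had a median of 0.68 in the kept bases and 0.43 in the Ctrl-only bases. The same order held for the 2965 other pairs with at least 100 bp lost, where the GC content was lower in the Ctrl-only bases at 82.3% (80.9 to 83.6%). It also held for bases gained: in 836 widened pairs the bases that only TGFB1 covered had a median GC content of 50.9% against 57.6% in the shared bases. Ends of H3K4me3 peaks were thus poorer in GC than their centres in every set compared, and this was not particular to the narrowed promoters. Whole Ctrl peaks had a median GC content of 55.5% in the narrowed and 55.5% in the other pairs. Their median CpG ratio was lower in the narrowed, 0.623 (0.599 to 0.662), than in the other pairs, 0.678 (0.674 to 0.682). In the widened pairs it was 0.691 (0.673 to 0.704).

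G-quadruplex motifs, here 4 runs of 3 G with spacers of 1 to 7 bases on either strand, were present in 69.3% of the narrowed Ctrl peaks (63.2 to 74.8%) and 65.1% of the others (64.0 to 66.1%). They covered 2.38% of the kept and 2.12% of the Ctrl-only bases of the narrowed peaks, and 2.09% and 1.33% in the other pairs, which are pooled shares with no interval. The match to the miR-9 seed, ACCAAAG on either strand, was found in 23.5% of the narrowed Ctrl peaks (18.6 to 29.3%) and 21.5% of the others (20.7 to 22.5%). For the share of peaks with a motif or a seed match, the intervals of the 2 sets overlap.

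To show where the narrowed peaks lost length, both ends were placed relative to the TSS of the nearest RefSeq transcript, which was found for 237 members. The upstream end moved inwards by a median of 287 bp and the downstream end by a median of 171 bp. In all, 139 members lost more on the upstream side and 97 more on the downstream side, a downstream share of 40.9% (Wilson 95% interval 34.9 to 47.3%). In the other pairs the downstream share was 50.3% (49.2 to 51.5%). Most of those peaks were longer in TGFB1, so their share mixes losses with gains. The widened pairs had a median loss of -283 bp upstream and -214 bp downstream, where a negative loss is a gain. Their upstream end thus moved more as well, so this was not particular to the narrowed promoters. Both ends moved inwards at 150 members, the upstream end alone at 49 and the downstream end alone at 38. At 72 members, 30.4%, 9 in 10 or more of the loss was upstream, and at 47, 19.8%, it was downstream. Hira, which encodes a chaperone of histone H3.3, was of the first kind, with 752 bp lost upstream and 23 bp downstream. Dusp4 was of the second kind, with 1400 bp lost downstream and 146 bp added upstream. Among the other pairs 950 were of the first kind and 965 of the second, while 2891 of all 8145 pairs were shorter in TGFB1. One-sided loss was thus not particular to the narrowed promoters.

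**Figure D2:**
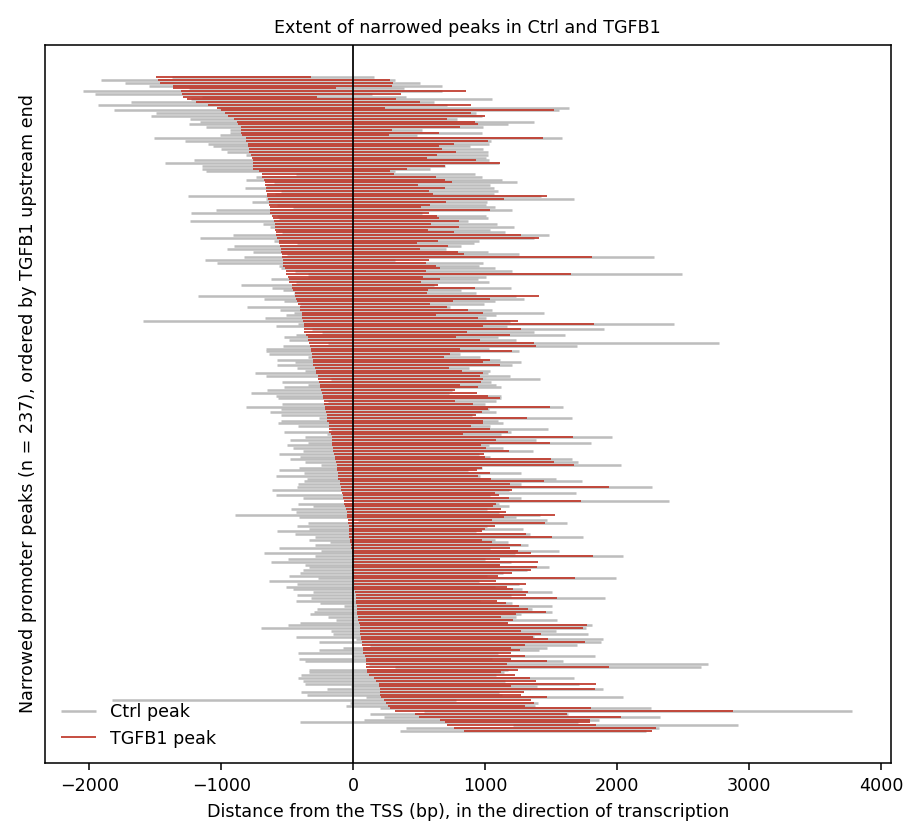
Extent of each of 237 narrowed peaks relative to the TSS (x axis, bp, positive in the direction of transcription), 1 row per peak, ordered by the upstream end in TGFB1. Grey lines are Ctrl peaks and red lines TGFB1 peaks; the median upstream reach was 497 bp for the grey and 220 bp for the red lines, and in the lowest rows the red line starts downstream of the TSS.

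The TSS itself lay in the Ctrl peak of 221 narrowed promoters. Of these, 175 still spanned it in TGFB1, which is 79.2% (73.4 to 84.0%), 43 lay wholly downstream of it and 3 wholly upstream. The TSS was thus left outside at 46 members. Of 7125 other pairs whose Ctrl peak spanned the TSS, 97.9% still spanned it (97.5 to 98.2%), and since the lost length chose the members, this difference is a description. The 3 with the TGFB1 peak wholly upstream were Bhlhe41, Tent5a and Fastkd1. Among those wholly downstream were Med14, Hira, Atrx, Map3k1, Spop and S1pr1. Only 9 of the 46 had a TGFB1+miR-9-LOF peak, and 2 of these 9 spanned the TSS. At 38 members 2 or more genes started in the Ctrl peak, 16.0% of members and 17.0% of other pairs, so shared promoters were about as frequent among them. At 50 members, 21.0%, a gene with a start in the Ctrl peak had none in the TGFB1 peak, against 2.38% of the other pairs. This too is a description, since the lost length chose the members. Besides Naa50 and Bbip1, the genes left outside included Mrpl40 at the Hira promoter, Txndc16 at the Gpr137c promoter, G6pdx at the Ikbkg promoter and Actg1 at the promoter named Mir6935. Since the Ctrl peak named Mir6935 covers the start of Actg1, the gene of cytoplasmic gamma-actin, the deposited name is only the nearest TSS.

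To relate length to strength, the scores were set side by side. The median Ctrl score of the narrowed peaks was 57 and their median TGFB1 score 60, against 82 and 95 in the other pairs. The TGFB1 score was above the Ctrl score at 149 narrowed peaks, 62.6% (56.3 to 68.5%), and below it at 85. In the other pairs it was above at 69.8% (68.8 to 70.8%). A higher TGFB1 score was thus the more common at narrowed peaks too, but less so than in the other pairs. In the widened pairs the TGFB1 score was above at 65.0% (61.7 to 68.2%), an interval that overlaps the narrowed one. The smaller share was thus not particular to the narrowed promoters. The TGFB1 score was lower at 35.7% of the narrowed, 28.7% of the other and 33.0% of the widened pairs. The whole TGFB1 list scored higher than the Ctrl list, with medians of 89 and 79, and scores were not scaled between them. The TGFB1 score exceeded the Ctrl score most at Tmco1 (74 in Ctrl, 151 in TGFB1), Nap1l1 (55 and 124) and Dap (107 and 171). It was lower by most at Sh3glb2 (85 and 36), Inpp4a (84 and 40) and Gm10033 (102 and 62).

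Narrowed promoters were found mostly among low-scoring peaks. They made up 7.85% of the 1045 pairs with a Ctrl score under 50 and 0.329% of the 2432 pairs with a Ctrl score of 100 or more. The widened pairs followed the same order, with 25.9% of the pairs with a score under 50 and 3.37% of those with 100 or more. The lengths of low-scoring peaks therefore differed more between the 2 libraries in both directions. How much of the narrowing is spread between libraries cannot be told from 1 library per group.

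**Figure D3:**
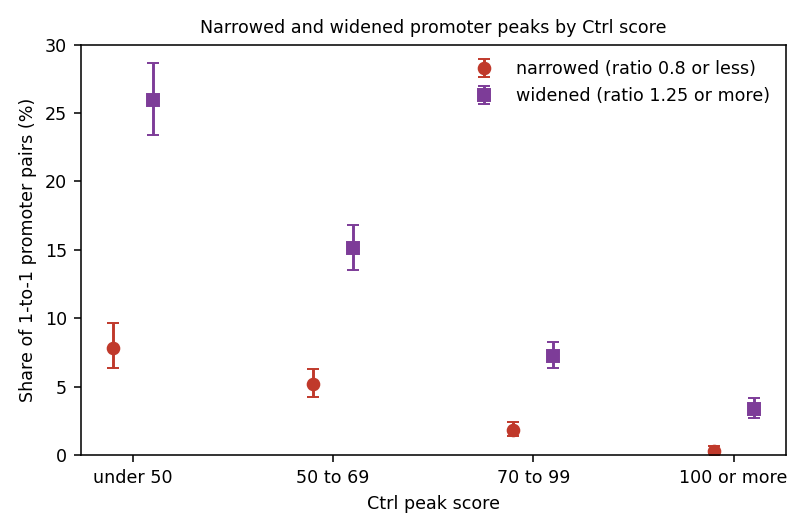
Share of the 1-to-1 promoter pairs (y axis, %) that were narrowed (red circles) or widened (purple squares) in 4 ranges of the Ctrl score (x axis, score as deposited); bars are Wilson 95% intervals. Both shares are lowest in the highest range, at 0.329% for the narrowed and 3.37% for the widened pairs, and highest in the lowest range, at 7.85% and 25.9%.

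The chromosomes differed in the same way. The X chromosome had the highest narrowed share, 15 of 187 pairs or 8.02%, and also a widened share of 20.3%, and the median Ctrl score of its pairs was 55. Its narrowed promoters included Gnl3l, Med14, Atrx, Slc25a14, Cdk16, Ocrl, Rps4x and Timm8a1. On chromosome 11 there were 10 of 694 pairs or 1.44%, with a widened share of 8.36% and a median Ctrl score of 97. The part of the score in the chromosome difference was not tested.

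The named genes of TGFB signalling and the fibroblast state were few among the members. Of 33 measured promoters of the TGFB and BMP pathway only Tgfb3, the gene of the third TGFB ligand, was narrowed, 3.03% against 2.92% of all pairs. Its peak shortened from 1913 to 1528 bp, with scores of 37 and 44, and TGFB1+miR-9-LOF had no peak. Of the 33 pathway promoters 24 were longer in TGFB1 and their median ratio was 1.12, above the 1.04 of all pairs. Acta2, which encodes smooth muscle alpha-actin, the usual myofibroblast marker, was the only narrowed one of 25 genes of the TGFB1 response and of 33 genes of matrix and myofibroblasts. The Ctrl peak measured 2069 bp (chr19:34253674-34255742), the TGFB1 peak 1655 bp and the TGFB1+miR-9-LOF peak 1504 bp, and their scores were 82, 126 and 39. Acta2 was the member closest to the limit, so its place in the set depends on a few bases.

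**Figure D4:**
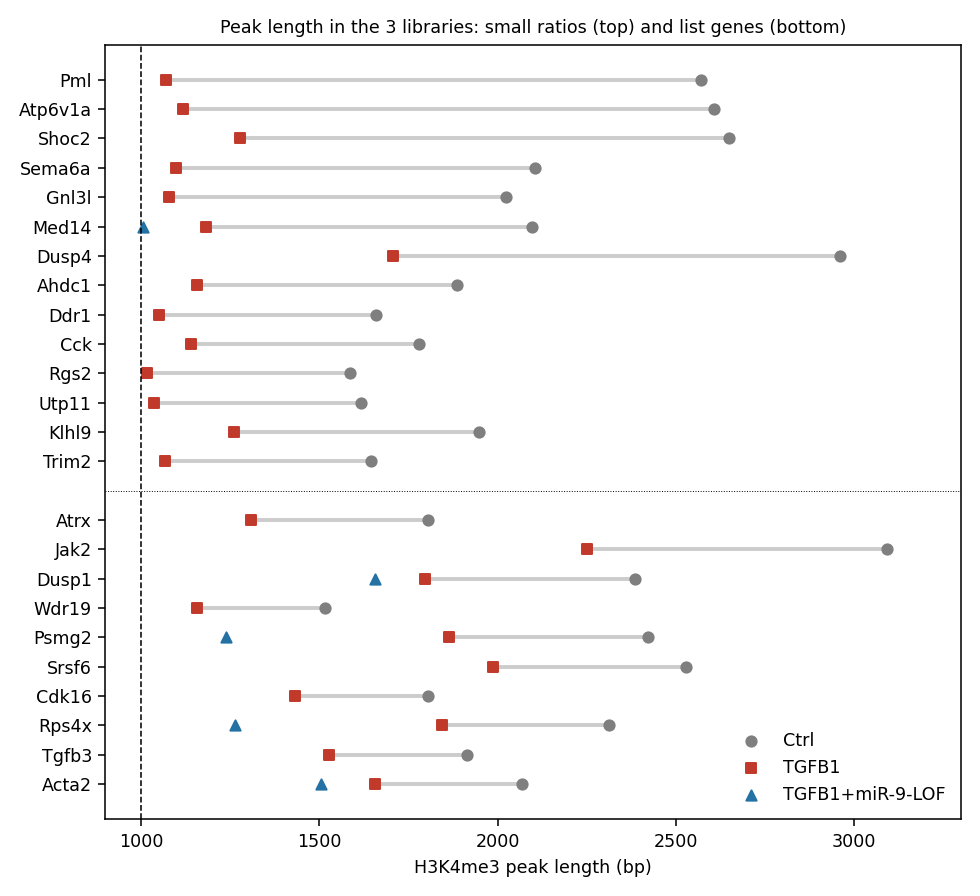
H3K4me3 peak length in bp (x axis) in Ctrl (grey circles), TGFB1 (red squares) and TGFB1+miR-9-LOF (blue triangles) for 14 narrowed promoters with small ratios (above the dotted line) and the other narrowed genes on a list (below it). The dashed line is the shortest peak length of 1000 bp; a missing triangle means that no TGFB1+miR-9-LOF peak overlapped, as at 13 of the upper 14, and each triangle drawn lies left of the red square of its row.

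Phosphatases that switch off MAP kinases gave 2 members out of 11 measured, 18.2% against 2.92% of all pairs. The gene lists were chosen with earlier results of these data known, so this and the other list shares are a description. Dusp4, a nuclear phosphatase of ERK, went from 2961 to 1707 bp, with scores of 49 and 69, and lacked a TGFB1+miR-9-LOF peak. Dusp1, an early response gene whose product acts on p38, JNK and ERK, measured 2384 bp in the Ctrl list, 1795 bp in the TGFB1 list and 1656 bp in the TGFB1+miR-9-LOF list, with scores of 98, 132 and 65. At both the loss was on the downstream side, 1400 bp and 668 bp. Of the 11 promoters 7 were shorter in TGFB1 and 1 was widened, while 2891 of all 8145 pairs were shorter. Among 27 measured immediate early genes none was narrowed and 17 were longer in TGFB1, about the share of all pairs, of which 5237 were longer.

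In the nucleus, Pml and Atrx were narrowed of 20 measured genes of PML nuclear bodies and SUMO. Atrx encodes a chromatin remodeller found at these bodies and its peak went from 1806 to 1309 bp, with 494 bp lost upstream and 3 bp downstream. Med14, the gene of the Mediator subunit that links its modules, was the only one of 27 Mediator promoters, 3.70%. Its Ctrl peak measured 2097 bp, its TGFB1 peak 1183 bp and its TGFB1+miR-9-LOF peak 1005 bp, and their scores were 36, 61 and 39. Jak2, the kinase of many cytokine receptors, lay with Pml on the list of interferon and STAT genes, where 2 of 19 were narrowed, 10.5%. Its peak went from 3093 to 2252 bp, with 696 bp of the loss upstream, and had no TGFB1+miR-9-LOF peak despite a TGFB1 score of 94. Other list genes were Srsf6 of 49 splicing factors (2528 and 1987 bp), Rps4x of 58 cytosolic ribosomal proteins (2313 and 1843 bp), Psmg2, a proteasome assembly chaperone, of 39 proteasome genes (2423 and 1863 bp), Cdk16 of 34 cyclins and cyclin-dependent kinases (1804 and 1432 bp) and Wdr19 of 18 genes of ciliary transport (1517 and 1156 bp).

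No narrowed promoter was found among the 20 measured writers and erasers of H3K4 methylation, 22 Polycomb genes, 12 cohesin and looping genes, 16 acetyltransferases and deacetylases, 14 genes of microRNA processing, 23 stress and p53 genes, 20 tumour suppressors, 24 housekeeping genes or the 5 genes the study chose. In all, 13 narrowed promoters fell on 12 of the 23 lists, out of 534 pairs of a list gene. That is 2.43%, close to the 2.92% of all pairs, and with lists this short a count of 0 is a small departure from it.

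Several gene families had more than 1 member, and these were picked after their values were seen, so their counts are a description beside the 2.92% of all pairs. Zfp zinc finger genes gave 13 of 242 pairs, or 5.37%, led by Zfp777 (from 2110 to 1404 bp). Mitochondrial carriers of the Slc25 family gave 4 of 28, or 14.3%, namely Slc25a14, Slc25a20, Slc25a24 and Slc25a38. TRIM genes with Mid1 gave 4 of 22, or 18.2%, among them both Trim2 promoters. Enzymes that remove phosphates from inositol lipids gave 3 of 9, or 33.3%: Inpp4a, Inpp5e and Ocrl. Widened pairs numbered 25 among the Zfp genes and 3 in each of the Slc25, TRIM and inositol lipid families. In this order the median ratios of the families were 1.05, 1.02, 0.97 and 1.05, against 1.04 of all pairs. Lengths in these families thus differed in both directions. Trib2 and Trib3, pseudokinases, had ratios of 0.73 and 0.71. Single members outside the lists and families, also picked by hand and with no count to set them against, were Fgf7, a growth factor that mesenchymal cells make for epithelium (3245 and 2556 bp), Gli2, a transcription factor of Hedgehog signalling (2337 and 1830 bp), S1pr1, a receptor for sphingosine 1-phosphate (2073 and 1651 bp), Ddr1, a collagen receptor (1659 and 1051 bp), F3, which encodes tissue factor (2695 and 2033 bp), and Lgals3, which encodes galectin-3 (1876 and 1417 bp).

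The TGFB1+miR-9-LOF list took no part in choosing the members and shows what these promoters looked like in a library outside the rule. A peak of that list overlapped 58 of the 238 narrowed peaks, 24.4% (Wilson 95% interval 19.4 to 30.2%), and 59.7% of the other pairs (58.6 to 60.8%). Among the other pairs it overlapped 35.1% of the widened ones (32.0 to 38.4%) and 62.6% of the rest (61.5 to 63.8%). A low share was thus not particular to the narrowed promoters, though theirs was the lowest. Such a peak was missing at 180 members, while over all pairs 41.3% had none. This share moved with the score: among pairs scoring at least the Ctrl median of 79 in both lists it was 80.8% of 26 narrowed peaks (62.1 to 91.5%) and 84.6% of 3907 other pairs (83.5 to 85.7%). It also moved with the length in TGFB1. Among peaks under 1200 bp in TGFB1 it was present at 4 of 95 narrowed peaks, 4.21% (1.65 to 10.3%), and at 5.34% of other pairs of that length (3.01 to 9.31%). From 1200 to under 1500 bp the shares were 24.4% of 82 (16.4 to 34.7%) and 20.6% (18.2 to 23.2%). From 1500 to under 2000 bp they were 61.5% of 52 (48.0 to 73.5%) and 60.7% (59.3 to 62.1%). From 2000 bp upwards the shares were 2 of 9 and 82.2%. The 2 were F3 and Rusc2, and the 7 without a peak included Jak2, Fgf7, Ing1, Schip1 and Agbl5. Set beside pairs of like Ctrl length, narrowed promoters had such peaks far less often. The shares were 0 of 44 (upper limit 8.03%) and 23.4% (21.6 to 25.3%) under 1500 bp in Ctrl, 18.5% of 130 (12.732 to 26.002%) and 67.0% (65.6 to 68.4%) from 1500 to under 2000 bp, and 53.1% of 64 (41.1 to 64.8%) and 85.8% (84.0 to 87.5%) from 2000 bp upwards. The comparison thus depends on which of the 2 lengths is matched, and both chose the members.

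**Figure D5:**
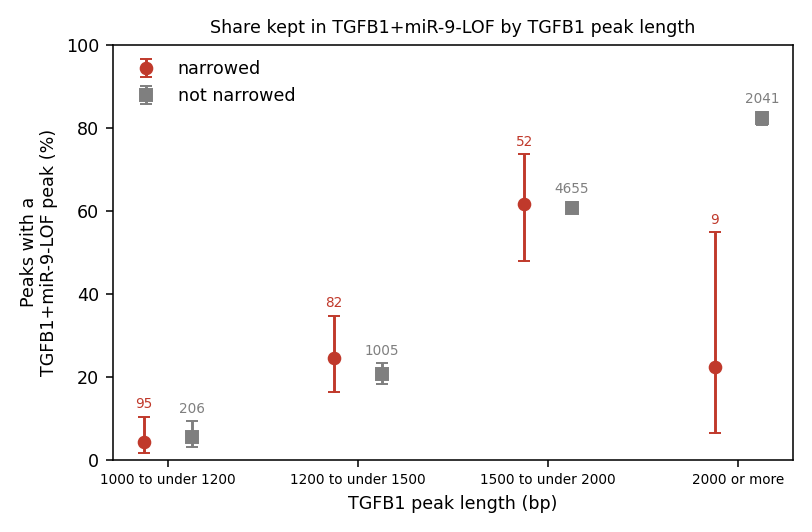
Share of promoter pairs with an overlapping TGFB1+miR-9-LOF peak (y axis, %) in 4 ranges of TGFB1 peak length (x axis, bp), for narrowed (red circles) and other pairs (grey squares), with Wilson 95% intervals and the number of pairs above each. The 2 sets lie within each other's range below 2000 bp, at 61.5% and 60.7% in the third range, and apart in the last, where there are 9 narrowed peaks.

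At like scores, with length not matched, the narrowed peaks had the lower share in all 4 ranges of the TGFB1 score. With a TGFB1 score of 100 or more, 25 of 34 narrowed peaks had a TGFB1+miR-9-LOF peak, 73.5% (56.9 to 85.4%), and 85.9% of other pairs (84.7 to 87.0%). From 70 to 99 the shares were 38.6% of 57 (27.1 to 51.6%) and 52.0% (49.998 to 53.907%), and from 50 to 69 they were 11.1% of 81 (6.0 to 19.8%) and 24.5% (22.3 to 26.8%). Under 50 they were 3.03% of 66 (0.835 to 10.4%) and 10.4% (8.001 to 13.292%). By the Ctrl score, too, the narrowed share was the lower in each of 4 ranges, from 6.10% against 14.95% under 50 to 6 of 8 against 89.4% at 100 or more. With TGFB1 score and TGFB1 length both matched, the narrowed share was not always the lower. At scores of 100 or more it was 46.2% of 13 against 45.9% from 1200 to under 1500 bp. From 1500 to under 2000 bp it was 90.5% of 21 against 81.9%. At scores of 70 to 99 these 2 length ranges gave 36.0% of 25 against 28.4%, and 55.0% of 20 against 48.9%. Shorter peaks gave 0 of 8 against 11.1%, and longer ones 2 of 4 against 76.3%. The highest TGFB1 scores without a TGFB1+miR-9-LOF peak were at Tmco1 (151), Gatad2a (126), Fis1 (122), Adamts14 (120) and Eif5 (117). Tmco1 encodes a membrane protein of the endoplasmic reticulum and Gatad2a a subunit of the NuRD complex.

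Where such a peak was present, its length is given beside those of the lists that chose the members. This is a description, since a member is by the rule long in Ctrl and short in TGFB1, and the TGFB1+miR-9-LOF peaks are the shortest overall. None of the 58 was as long as the Ctrl peak or longer (Wilson upper limit 6.21%), and 3.64% of other pairs with 3 peaks had a TGFB1+miR-9-LOF peak longer than the Ctrl peak. The 58 had a median length of 1242 bp in TGFB1+miR-9-LOF (1191 to 1297 bp), from 1000 bp at Zfp866 and Timm8a1 to 1774 bp at Ddx54. The median log2 length ratio of TGFB1+miR-9-LOF over TGFB1 was -0.27 (order-statistic 95% interval -0.35 to -0.15), and -0.49 (-0.50 to -0.48) in the other pairs. Among TGFB1 lengths of 1500 to under 2000 bp it was -0.31 (-0.40 to -0.12) over 32 narrowed peaks and -0.47 (-0.48 to -0.46) over other pairs, with median TGFB1 lengths of 1684.5 and 1790 bp. From 1200 to under 1500 bp it was -0.26 (-0.36 to -0.11) over 20 narrowed peaks and -0.34 (-0.37 to -0.31) over 207 other pairs, where the median TGFB1+miR-9-LOF lengths were 1109.5 and 1107 bp. These ratios hold the TGFB1 length that chose the members, and no peak could fall below 1000 bp.

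The TGFB1+miR-9-LOF peak was longer than the TGFB1 peak at 4 of the 58. These were Atp6v1h, another subunit of the vacuolar proton pump (Ctrl length 1736 bp, TGFB1 length 1205 bp, TGFB1+miR-9-LOF length 1369 bp), Ndrg4 (1549, 1209 and 1232 bp), Mrpl37 (1779, 1345 and 1370 bp) and Snx24 (1686, 1129 and 1143 bp). At 14 of the 58 it reached 100 bp or more outside the TGFB1 peak, 24.1%, and at 6.90% of other pairs. A TGFB1 peak chosen for being short leaves more room outside it, so nothing is read from this difference. The longest TGFB1+miR-9-LOF peaks were those of Ddx54 (2534, 1808 and 1774 bp), Gli2 (2337, 1830 and 1712 bp), Cdc25a (2271, 1795 and 1659 bp), Dusp1 and Gm10638 (2425, 1820 and 1636 bp). Cdc25a, a phosphatase that starts cell cycle transitions, also had the highest Ctrl score of all members, 127.

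The core promoters, from 250 bases before to 50 after the start, were searched on both strands for short motifs. A GC box, GGGCGG, was found in 71.7% of 237 narrowed promoters (65.7 to 77.1%), in 71.6% of the other pairs (70.6 to 72.6%) and in 35.9% of all 27025 RefSeq promoters. The ETS motif CCGGAAG was found in 14.3% (10.5 to 19.4%) against 21.6% of the other pairs (20.7 to 22.5%) and 9.12% of all promoters. The E-box CACGTG was found in 14.8% (10.8 to 19.8%) against 10.6% (9.98 to 11.3%) and 7.24%. The AP-1 motif TGANTCA was found in 5.06%, 3.59% and 7.93%, and the SMAD motif GTCTG in 46.0%, 44.8% and 49.7%, in that order. The other 7 motifs were the TATA box TATAAA, the CCAAT box, the cAMP response element TGACGTCA, the palindromic SMAD site GTCTAGAC, the YY1 motif ATGGCGG, the CArG box and the miR-9 seed match ACCAAAG. The palindromic SMAD site was in none of the 237 (upper limit 1.60%) and the miR-9 seed match in 4.64% (2.61 to 8.12%), against 3.00% of other pairs (2.64 to 3.40%). Of the 12 motifs, none of which contains another, only the ETS motif had intervals that do not overlap between narrowed and other pairs. In the widened pairs the ETS motif was found in 18.7% (16.2 to 21.5%), an interval that overlaps the narrowed one. The 4 promoters below are of members described above, in the direction of the gene, from the RefSeq promoter table of build GRCm38.p6. Capitals mark the GC boxes of Med14, the cAMP response element TGACGTCA of Dusp1, the SMAD motif of Acta2 and the reverse complement of the miR-9 seed match in Cdc25a.
Med14, chrX:12761924-12762223, minus strand: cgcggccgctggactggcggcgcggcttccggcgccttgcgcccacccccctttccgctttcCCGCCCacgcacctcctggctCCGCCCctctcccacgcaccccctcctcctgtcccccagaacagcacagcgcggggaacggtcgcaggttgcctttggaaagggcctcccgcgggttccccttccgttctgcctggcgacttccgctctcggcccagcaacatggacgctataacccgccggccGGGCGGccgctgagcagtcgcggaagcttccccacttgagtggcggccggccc
Dusp1, chr17:26508423-26508722, minus strand: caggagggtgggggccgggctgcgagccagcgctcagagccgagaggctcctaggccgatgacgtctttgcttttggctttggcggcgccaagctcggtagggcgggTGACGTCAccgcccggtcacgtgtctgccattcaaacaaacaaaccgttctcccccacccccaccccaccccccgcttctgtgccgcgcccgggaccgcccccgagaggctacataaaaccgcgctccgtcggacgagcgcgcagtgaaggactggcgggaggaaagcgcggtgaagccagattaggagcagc
Acta2, chr19:34255324-34255623, minus strand: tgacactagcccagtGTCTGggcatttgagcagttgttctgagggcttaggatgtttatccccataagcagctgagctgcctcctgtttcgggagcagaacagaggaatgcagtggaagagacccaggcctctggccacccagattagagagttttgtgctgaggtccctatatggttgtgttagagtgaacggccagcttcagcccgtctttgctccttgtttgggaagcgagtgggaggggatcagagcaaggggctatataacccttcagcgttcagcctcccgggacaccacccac
Cdc25a, chr9:109875329-109875628, plus strand: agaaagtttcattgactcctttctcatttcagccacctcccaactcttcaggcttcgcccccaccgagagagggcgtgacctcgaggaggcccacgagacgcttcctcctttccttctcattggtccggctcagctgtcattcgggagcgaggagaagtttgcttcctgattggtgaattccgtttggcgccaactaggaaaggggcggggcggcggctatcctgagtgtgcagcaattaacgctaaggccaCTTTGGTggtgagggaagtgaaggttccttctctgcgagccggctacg
The Ctrl peak of Med14 covered its start and 423 bp before it, whereas the TGFB1 peak began 156 bp after the start and so covered none of the GC boxes shown. At Acta2 the TGFB1 peak reached 133 bp before the start and the Ctrl peak 369 bp, so that the SMAD motif lay in the Ctrl-only part. At Cdc25a the motif marked lay within the peak in all 3 lists. Such a match describes the sequence and is no evidence of binding.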

How the data were processed

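H3K4me3 was measured by ChIP-seq in 3 libraries of MLg cells, 1 per group. The authors deposited 1 annotated list of broad peaks per library. Per the labels and the study's methods, the processing on mm10 used bedtools, Bowtie2, deepTools 3.5.1, HOMER, Picard 1.119 and Trimmomatic, and peaks were called by MACS3 in broad mode at a q-value of 0.001, a read extension of 1000 bp and 1 read kept per position. The sources used here name no input control. The deposited score of each peak is the authors' own and was not scaled between libraries, and the positions and distances to the TSS are in bp. The depth is unknown, and the extension sets a shortest peak of 1000 bp.

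Length was end minus start plus 1, an overlap was 1 bp or more, and a promoter peak lay within 2000 bp of a TSS. Lists were joined in Python 3.11.15 with pandas 2.3.3. Shares have Wilson and medians order-statistic 95% intervals. TSSs, strands and sequences came from RefSeq GRCm38, whose coordinates are those of mm10, read with pysam 0.24.0. A transcript placed more than once was taken at the copy the deposited distance gives. Composition needed at least 100 bases. The joining rule was tested on simulated lists. Members and gene lists were chosen with earlier results of these data known. Members to name were the smallest ratios, the largest losses, those at the limit, list genes, and the extremes of score and of TGFB1+miR-9-LOF length. The alternatives tried were ratio limits of 0.75 and 0.85, a distance of 1000 bp, a score of at least the Ctrl median, and an overlap of at least 0.5 of the shorter peak. Some members are counted but not reported here by name.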

Additional observations from a re-analysis of the deposited data

How the results depend on the processing

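Each of 5 results was recomputed under 5 alternatives. With a ratio limit of 0.75 there were 112 narrowed peaks, 1.38% of the pairs, and 16.1% of them had a TGFB1+miR-9-LOF peak. With a limit of 0.85 there were 484, 5.94% and 34.3%. With only peaks scoring at least the Ctrl median of 79 in both lists there were 26, 0.661% and 80.8%, so the share with a TGFB1+miR-9-LOF peak rests on which scores are admitted. All other values stayed within 1.5 times the main count or within its 95% interval. The downstream share ran from 38.5% to 44.5% and the median log2 ratio of TGFB1+miR-9-LOF over TGFB1 from -0.35 to -0.17 over the 5 alternatives. No paired analysis was possible because each group has 1 library. Depth is unknown, peaks under 1000 bp could not be called, and without a second library per group the spread of peak length between libraries was not measured.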
